A study of Homo sapiens with 18 samples.

Results

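NLRP2, its adjacent paralog NLRP7 and the nearby genes GP6, RDH13, EPS8L1 and PPP1R12C form a stretch of human chromosome 19q13.4. These 6 genes, of 20329 in the count tables, were taken by name, by matching Ensembl identifiers to symbols. The group was chosen by the NLRP2 counts of these samples, which were all but lost in both ΔWAPL single-mutant clones, so the levels of NLRP2 are given as a description without a test. The question asked of the other genes is whether the difference at NLRP2 extended to its neighbours.

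RNA was measured in HAP1 cells, a near-haploid human line derived from a chronic myeloid leukaemia, in 6 groups of 3 samples. Set A held control cells, ΔWAPL cells of clone 3.3, ΔSCC4 cells and ΔWAPL/ΔSCC4 cells, and set B held its own control cells and ΔWAPL cells of clone 1.14. Only the control labels carry the letter A or B. The set of each mutant line was assigned here and is not stated in the labels. WAPL releases cohesin from DNA, and SCC4, encoded by MAU2, is a subunit of the cohesin loader. WAPL was disrupted by inserting a Blasticidin cassette and SCC4 by inserting a Puromycin cassette, and the double mutant was derived from ΔWAPL clone 3.3. Every mutant line was thus 1 clone, and all lines, controls included, carried mutant p53. Clone, cassette and genotype cannot be told apart within a comparison, and the comparisons within set A share their samples, so they are given side by side and not set against each other. The labels do not say whether replicates were separate cultures, so p-values measure the spread between these samples, which may be technical.

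NLRP2 and NLRP7 encode members of the NLR family, cytoplasmic proteins with a pyrin domain, a nucleotide-binding domain and leucine-rich repeats. Relatives of these proteins assemble inflammasomes that activate caspase-1, and NLRP2 and NLRP7 have been studied as modulators of that pathway and of NF-κB. Both genes are best known from the female germ line, where maternal loss of NLRP7 causes recurrent hydatidiform mole and both have been linked to disturbed imprinting. The transcripts are described here as RNA levels in a cultured line, where neither pathway was measured.

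Between 10007646 and 20711127 reads fell on genes in each sample, and the shallowest library was ΔSCC4 replicate 2. MAU2 averaged 0.702 ± 0.243 CPM (counts scaled to library size after TMM normalization, mean ± SD, n = 3) in ΔSCC4 cells and 0.934 ± 0.1004 in ΔWAPL/ΔSCC4 cells against 65.6 ± 6.25 in the controls of set A. WAPL RNA was lower but present in the ΔWAPL lines. It averaged 43.7 ± 5.65 CPM in clone 3.3 against 99.2 ± 21.5 in its controls, and 41.3 ± 2.89 in clone 1.14 against 120.6 ± 14.6. Why WAPL reads remained was not tested. Markers of blood cells summed to at most 0.553 CPM in any sample, with 3 to 5 of 7 at 0 in each group, and SPI1, MPO and HBG1 had no read in any group.

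NLRP2 (ENSG00000022556) lies at 55464498 to 55512510 on the plus strand of chromosome 19 in GRCh37, the build of the count tables. NLRP7 (ENSG00000167634) lies at 55434877 to 55477680 on the minus strand, so the spans of the paralogs overlap head to head. RefSeq lists 2 start sites for NLRP2, 1090 bp apart, and the 300-base windows around them (250 bases before and 50 after the start) are copies of each other. They share 297 of 300 bases, an identity of 99%, and differ at G142C, A273G and A284T, with positions counted from the 5′ end of the window and the base of the upstream window given first. The likeness extends beyond the windows, since a stretch of 1080 bp recurs at a spacing of 1090 bp with 98.1% identity in GRCh37. In the annotation 3 of 13 coding NLRP2 transcripts start in the first window and 5 in the second, and 4 of 8 coding NLRP7 transcripts start in the second window on the other strand. Reads that aligned to more than 1 place were not counted on a gene, so reads from the repeated stretch may be missing from both genes. The windows are shown because both hold starts of NLRP2 and the second also holds starts of NLRP7. They are given in plus strand orientation, that of NLRP2, and in GRCh38.p14 coordinates, with matches to GGGCGG on either strand in capitals.
NLRP2 first start, chr19:54965034-54965333, plus strand: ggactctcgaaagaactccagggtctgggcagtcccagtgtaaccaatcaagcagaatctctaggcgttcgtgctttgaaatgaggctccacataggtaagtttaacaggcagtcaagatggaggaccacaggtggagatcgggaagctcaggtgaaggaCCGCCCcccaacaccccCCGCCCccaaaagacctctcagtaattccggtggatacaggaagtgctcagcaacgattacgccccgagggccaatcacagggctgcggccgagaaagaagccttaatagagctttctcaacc
NLRP2 second start, chr19:54966124-54966423, plus strand: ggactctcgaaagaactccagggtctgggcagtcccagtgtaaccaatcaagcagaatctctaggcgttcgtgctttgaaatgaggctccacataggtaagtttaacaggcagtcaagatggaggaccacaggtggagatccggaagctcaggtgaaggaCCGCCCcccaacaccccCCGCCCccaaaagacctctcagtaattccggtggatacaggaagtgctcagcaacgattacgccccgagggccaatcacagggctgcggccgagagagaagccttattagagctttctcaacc
Each window held 12 CG dinucleotides, where the median of the 35116 RefSeq promoter windows was 14 and 48.3% held as few or fewer. Each held 2 matches to GGGCGG, a motif found in 45.0% of all windows on either strand, and 1 match to CCCTC, found in 71.2%. Neither held TATAAA, found in 11.5%, or CACGTG, found in 7.3%.

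NLRP2 was detected in the controls, all but absent after WAPL loss, and highest when SCC4 was lost as well. The 3 controls of set A had 49, 34 and 41 reads, which is 3.19, 2.096 and 2.44 CPM. None of the 3 ΔWAPL samples of clone 3.3 had a read. Every control of set A was thus above every sample of this clone.

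For NLRP2 in set B, the controls had 193, 189 and 187 reads, which is 13.2, 12.7 and 10.5 CPM. The ΔWAPL samples of clone 1.14 had 1, 0 and 0 reads. Both clones, each beside controls of its own set, thus sat at the floor of the measurement. No read in clone 3.3 allows a level of up to 0.0609 CPM over its 3 libraries, taken as 3 counts, and the controls were at least 42.1-fold higher than that floor. The ratio of control to clone 1.14 was 629.3, with a 95% counting interval from 112.5 to 24900 (exact binomial) that covers counting error only, and its size rests on 1 read. In a bulk sample, fewer cells expressing a gene and less RNA in each cell cannot be told apart.

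The lines without SCC4 stood on opposite sides of the control. ΔSCC4 samples had 12, 8 and 6 reads, or 0.780, 0.814 and 0.415 CPM, all under the lowest control of set A. ΔWAPL/ΔSCC4 samples had 283, 234 and 301 reads, or 16.1, 14.4 and 17.0 CPM, all above the highest control. The double mutant was derived from the clone in which no read was found.

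Pooled over replicates, NLRP2 was 3.91-fold higher in the controls of set A than in ΔSCC4 cells, with a counting interval of 2.55 to 6.22. ΔWAPL/ΔSCC4 cells were 6.19-fold above these controls, with an interval of 5.12 to 7.54, at least 260.6-fold above clone 3.3, and 24.2-fold above ΔSCC4 cells, with an interval of 16.4 to 37.3. By mean level the order was ΔWAPL/ΔSCC4 (15.8 ± 1.34 CPM), control of set B (12.1 ± 1.42), control of set A (2.58 ± 0.559), ΔSCC4 (0.670 ± 0.222), clone 1.14 (0.0177 ± 0.0306) and clone 3.3 (0). The ranges of neighbours in this order did not overlap, apart from those of the 2 ΔWAPL clones.

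The controls of the 2 sets, whose labels differ only in the letter and the replicate number, differed from each other. NLRP2 was 4.69-fold higher in the controls of set B than in those of set A, with a counting interval of 3.86 to 5.75, and no sample of one overlapped the other. A level set across the sets, such as that of the double mutant against the controls of set B, is therefore not a comparison of genotypes. Within each set the ΔWAPL clone was still below every control.

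**Figure D1:**
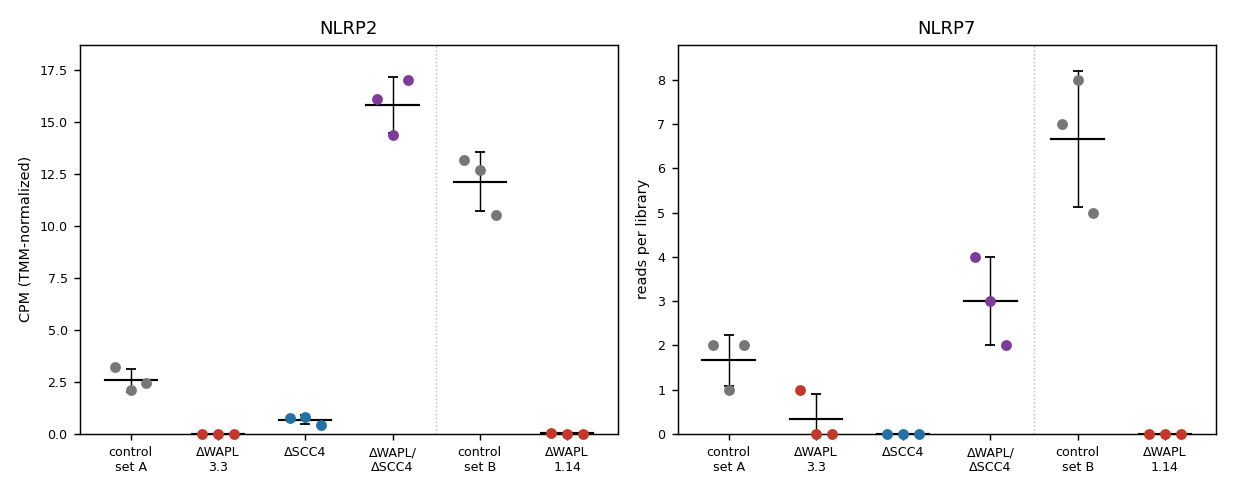
NLRP2 in CPM after TMM normalization (left) and NLRP7 in reads per library (right) for the 3 samples of each of the 6 groups; horizontal bars are means, whiskers are SD (n = 3), and a dotted line divides set A from set B. NLRP2 lies between 14.4 and 17.0 CPM in ΔWAPL/ΔSCC4 cells and at 0 in all but 1 of the ΔWAPL samples, and NLRP7 has at most 8 reads in any library.

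Of 11417 genes with a mean of at least 2 CPM in both control sets, with no upper limit on the level, 2 had no more than 1 read in every library of both ΔWAPL clones. These were NLRP2 and LIN28A, an RNA-binding protein of pluripotent cells that blocks let-7 processing. The thresholds of this count were set after the values of NLRP2 were seen, so it describes the gene and tests nothing.

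NLRP7 was near the limit of detection in every group and was not tested. Set B controls had 7, 8 and 5 reads, and clone 1.14 had none. Set A controls had 2, 1 and 2 reads and clone 3.3 had 1, 0 and 0. In each set all controls had more NLRP7 reads than the ΔWAPL samples, except that control replicate 2 and clone 3.3 replicate 1 of set A had the same number, 1.

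The other NLRP7 values were as low. ΔSCC4 cells had no read in any library, and ΔWAPL/ΔSCC4 cells had 4, 3 and 2. Set B controls were at least 7.37-fold above the floor of 3 counts over the libraries of clone 1.14. In set A the ratio of control to clone 3.3 was 5.09, with a counting interval of 0.570 to 240.9, so a difference was not detectable at this depth. ΔWAPL/ΔSCC4 cells against clone 3.3 gave a ratio of 8.60 with an interval of 1.19 to 377.0, and against set A's controls 1.69 with an interval of 0.508 to 6.42. Controls of set B were above those of set A, at a ratio of 4.09 with an interval of 1.49 to 13.95. The RefSeq start of NLRP7 lies apart from the shared window, and its window is shown for comparison with those of NLRP2, in the orientation of the gene.
NLRP7, chr19:54947481-54947780, minus strand: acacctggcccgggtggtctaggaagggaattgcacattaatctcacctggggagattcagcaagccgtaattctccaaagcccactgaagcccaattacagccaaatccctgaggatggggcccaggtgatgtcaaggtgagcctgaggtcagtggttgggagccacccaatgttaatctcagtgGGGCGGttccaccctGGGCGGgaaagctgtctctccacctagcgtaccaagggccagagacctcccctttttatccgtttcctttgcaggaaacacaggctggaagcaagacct
This window held 6 CG dinucleotides and, like each NLRP2 window, 2 matches to GGGCGG.

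GP6, RDH13, EPS8L1 and PPP1R12C follow NLRP2 on its telomeric side. GP6 (ENSG00000088053, 55525073 to 55549632, minus strand) encodes the platelet collagen receptor glycoprotein VI. It had 0 to 6 reads per library and 49 in all 18 libraries, with overlapping ranges between every pair of neighbours in the order of group means, and was not tested. Clone 3.3, where NLRP2 had no read, had 4, 4 and 3 GP6 reads.

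RDH13 (ENSG00000160439, 55550476 to 55582659, minus strand) encodes a mitochondrial short-chain dehydrogenase of the retinol dehydrogenase family. Its nearest end is 37966 bp from NLRP2. RDH13 stood at 23.6, 17.4 and 19.1 CPM in set A controls and at 15.9, 19.2 and 24.9 in clone 3.3. RDH13 stood at 18.3, 17.1 and 18.5 CPM in set B controls and at 16.6, 17.5 and 17.5 in clone 1.14. ΔSCC4 cells had 24.3, 17.6 and 20.2 CPM and ΔWAPL/ΔSCC4 cells 22.6, 18.8 and 21.7. These ranges overlapped within each set, and the 6 group means lay between 17.2 and 21.03 CPM.

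EPS8L1 (ENSG00000131037, 55583388 to 55599291, plus strand), 70878 bp away, encodes a relative of the actin regulator EPS8. EPS8L1 had 3.78, 4.87 and 3.58 CPM in set A controls and 3.64, 5.02 and 5.91 in clone 3.3. In set B, EPS8L1 had 5.40, 6.72 and 5.80 CPM in the controls and 6.20, 6.83 and 5.61 in clone 1.14. ΔSCC4 cells had 3.97, 2.95 and 3.8 CPM and ΔWAPL/ΔSCC4 cells 4.89, 3.87 and 3.73. EPS8L1 thus overlapped between mutant and control in each set, and all of its set B values were above those of the set A controls.

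PPP1R12C (ENSG00000125503, 55602282 to 55629005, minus strand), 89772 bp away, encodes a regulatory subunit of protein phosphatase 1 and holds the AAVS1 integration site. PPP1R12C had 42.8, 38.5 and 37.7 CPM in set A controls and 37.2, 42.6 and 51.4 in clone 3.3. In set B, PPP1R12C had 38.0, 38.7 and 36.3 CPM in the controls and 38.7, 44.8 and 39.2 in clone 1.14. ΔSCC4 cells had 55.0, 43.8 and 48.6 CPM and ΔWAPL/ΔSCC4 cells 50.1, 45.3 and 48.2. All samples of both lines without SCC4 were above all controls of set A.

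**Figure D2:**
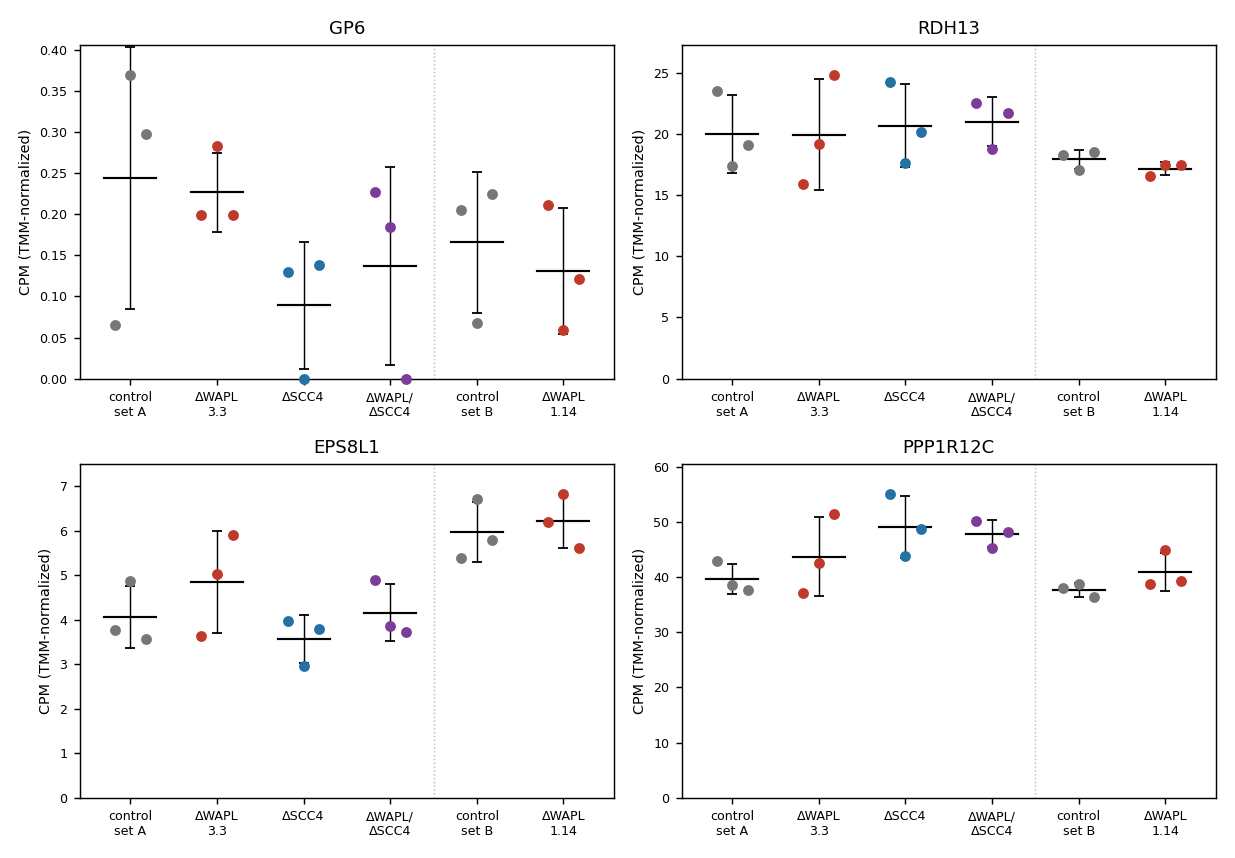
CPM after TMM normalization of GP6, RDH13, EPS8L1 and PPP1R12C in the 3 samples of each group, with means (horizontal bars), SD (whiskers, n = 3) and a dotted line between set A and set B. RDH13 group means stay between 17.2 and 21.03 CPM and those of PPP1R12C between 37.7 and 49.1, while NLRP2 went from 0 to 15.8.

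RDH13, EPS8L1 and PPP1R12C had enough counts to be tested, with edgeR's quasi-likelihood test on all genes that passed the count filter and Benjamini-Hochberg adjustment at 0.05. For ΔWAPL clone 3.3 against control, 0 of the 3 were called, where 8.07% of 12489 tested genes were. RDH13 differed by -0.03 on the log2 scale (95% interval -0.44 to 0.39, edgeR adjusted p = 0.9746), EPS8L1 by 0.23 (-0.25 to 0.70, 0.711) and PPP1R12C by 0.12 (-0.22 to 0.47, 0.802). As folds, the intervals reached down to 0.738 for RDH13, 0.842 for EPS8L1 and 0.856 for PPP1R12C. For clone 1.14 against its controls 0 of the 3 were called, where 20.1% of 12636 genes were. The lower ends of the intervals were 0.849 for RDH13, 0.849 for EPS8L1 and 0.955 for PPP1R12C as folds. Decreases larger than these lie outside the intervals, while NLRP2 had no more than 1 read in each of these libraries.

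For ΔSCC4 against control 0 of the 3 were called, where 9.49% of 12503 genes were. Replicate numbers paired these samples, though weakly for replicate 2 (correlation of deviations 0.115). A fit blocked on that number called 46.0% of genes. PPP1R12C was among them, 0.30 higher on the log2 scale (edgeR adjusted p = 0.00512 with the block, 0.246 without), whereas RDH13 and EPS8L1 were not called with it either. For ΔWAPL/ΔSCC4 against control 0 of the 3 were called, where 7.95% of 12594 genes were. PPP1R12C was 0.27 higher with an interval of 0.005 to 0.529 that does not include 0, but its edgeR adjusted p was 0.273.

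For ΔWAPL/ΔSCC4 against ΔWAPL clone 3.3, in which NLRP2 went from no read to its highest level, 0 of the 3 were called, where 10.6% of 12544 genes were. The changes were 0.08 for RDH13 (95% interval -0.25 to 0.42), -0.20 for EPS8L1 (-0.62 to 0.22) and 0.14 for PPP1R12C (-0.15 to 0.42). None was called for ΔWAPL/ΔSCC4 against ΔSCC4, where 27.3% of 12604 genes were. None differed between the clones in its WAPL effect by the interaction test, which called 2.65% of 12786 genes, or showed a WAPL by SCC4 interaction, which called 11.3% of 12817. Between the controls of the sets, EPS8L1 was 0.54 higher in set B (95% interval 0.15 to 0.93, edgeR adjusted p = 0.268), and none of the 3 was called, where 0.64% of 12509 genes were. Over the 9 comparisons the 27 edgeR tests of these genes, none with a replicate block, thus gave no call. An unadjusted p under 0.05 was found for PPP1R12C in ΔWAPL/ΔSCC4 against control, for EPS8L1 between the controls, and nowhere else. DESeq2 called none of the 3 in any comparison, and 1 of 369 tests under the alternative settings gave a call, that of PPP1R12C above. The alternatives refit the same libraries and are not independent tests.

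Farther out, 49 genes other than NLRP2 had a span within 500 kb of it. On the centromeric side there were 18, of which 13 were leukocyte receptor genes of the LILR, LAIR and KIR families, 9 had no read in any of the 18 libraries and only LENG8 was tested for clone 3.3. On the telomeric side there were 31, of which 19 were tested. What can be said of neighbours therefore concerns the telomeric side. Within 100 kb of NLRP2 the 3 tested genes were RDH13, EPS8L1 and PPP1R12C, while NLRP7 and GP6, which are nearer, were not tested. Without a replicate block edgeR called none of the 3, beside 0.64 to 27.3% of all genes over the comparisons. The called genes all lay beyond, as did most of the tested genes. With so few genes nearby, no dependence on distance can be read from this.

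For clone 3.3 against control 1 of 20 tested genes was called, TNNI3, which fell. For clone 1.14 against control 5 of 20 were called, all lower, against 11.4% of all genes called lower. These were TNNI3, TNNT1, DNAAF3, COX6B2 and IL11. For ΔSCC4 against control 4 of 20 were called, with IL11, TNNT1 and COX6B2 lower and BRSK1 higher, and 11 with the replicate block, of 46.0% of all genes.

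For ΔWAPL/ΔSCC4 the counts were 2 of 20 against control (LENG8 and DNAAF3, both higher), 2 of 20 against clone 3.3 (TNNI3 and LENG8, both higher) and 6 of 19 against ΔSCC4. The last were TNNT1, TNNI3, KMT5C and AC020922.1, which were higher, and RPL28 and BRSK1, which were lower. The test of a difference between the clones called 1 of 20, TNNT1. The WAPL by SCC4 interaction called 5 of 20, IL11, TNNT1, TNNI3, BRSK1 and AC020922.1. Between the controls 0 of 20 were called by edgeR and 0 by DESeq2, with 5 at an unadjusted p under 0.05. Shares of 5.0% for clone 3.3, 25.0% for clone 1.14 and 20.0% for ΔSCC4 stand beside 8.07%, 20.1% and 9.49% of all genes. For the double mutant the shares were 10.0% against control, 10.0% against clone 3.3 and 31.6% against ΔSCC4, beside 7.95%, 10.6% and 27.3% of all genes. They were 5.0% for the clone difference and 25.0% for the interaction, beside 2.65% and 11.3%, and each share rests on 1 to 6 genes.

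**Figure D3:**
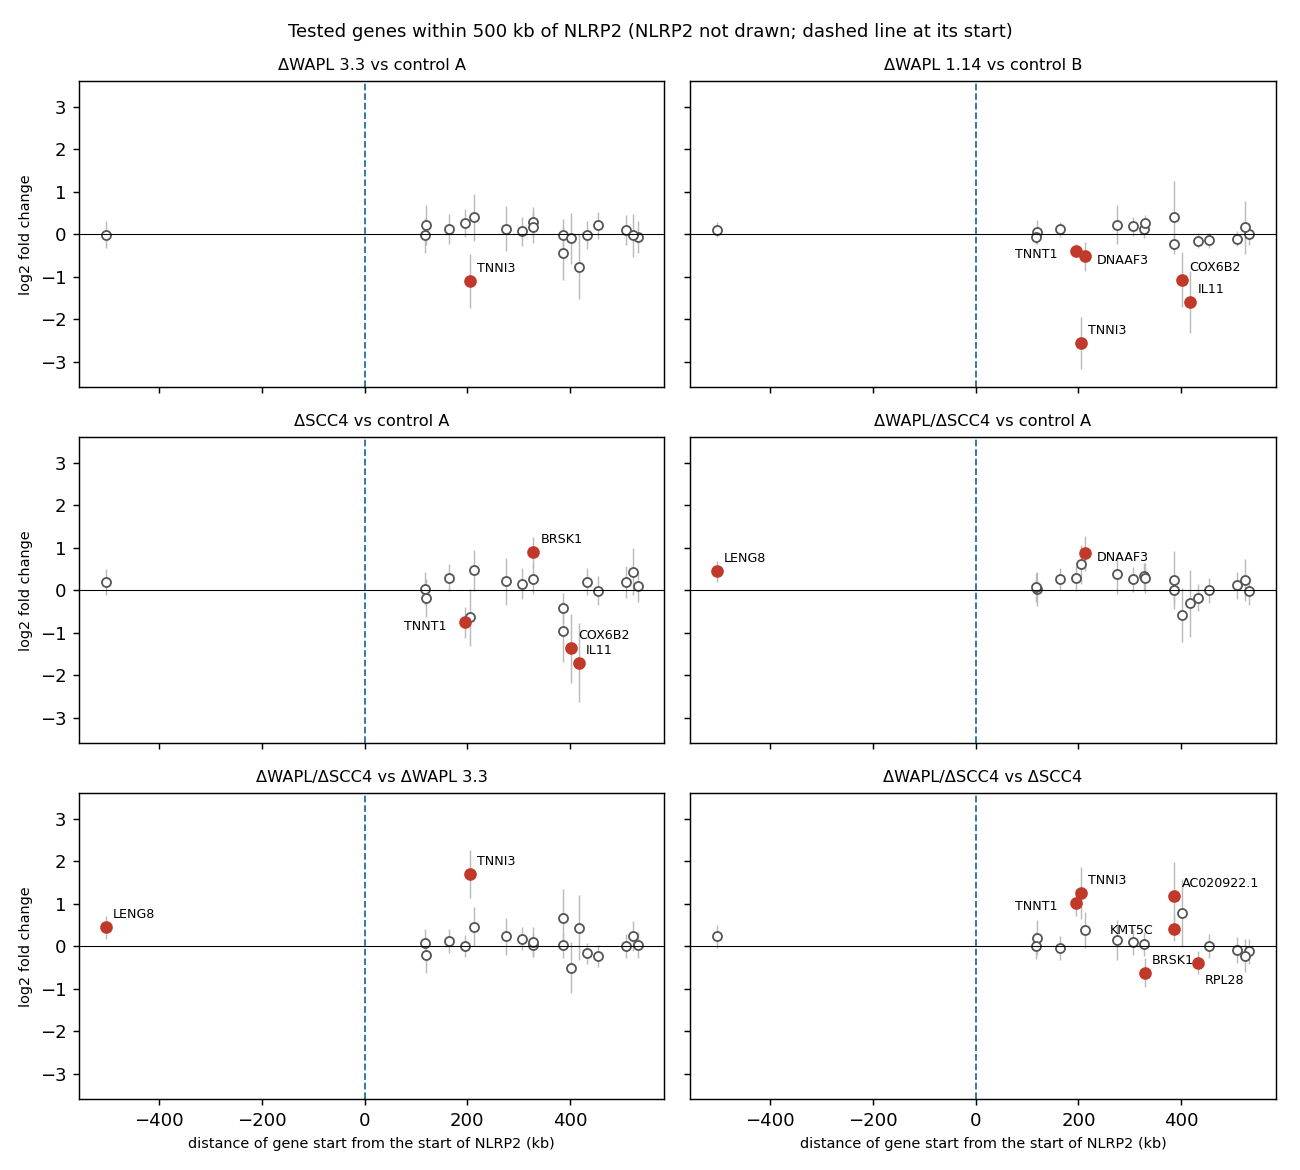
Log2 fold change with its 95% interval (vertical lines) of each tested gene within 500 kb of NLRP2, against the distance of its start from the start of NLRP2 in kb, in 6 pairwise comparisons; filled points passed an edgeR adjusted p of 0.05 and NLRP2 itself, at the dashed line, is not drawn. The nearest tested genes, RDH13, EPS8L1 and PPP1R12C, lie close to 0 in every panel, and TNNI3 is at -1.097 and -2.56 in the ΔWAPL clones. NLRP7 and GP6 are nearer to NLRP2 but had too few reads to be tested and are not drawn.

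TNNI3 (ENSG00000129991, 55663135 to 55669141, minus strand), 150625 bp from NLRP2, encodes cardiac troponin I, the inhibitory subunit of the troponin complex. Among the genes called in the window it was the one with the pattern most like that of NLRP2. The controls of set A had 20, 24 and 25 reads and clone 3.3 had 12, 8 and 13. The controls of set B had 32, 32 and 33 reads and clone 1.14 had 9, 5 and 4. ΔSCC4 cells had 12, 14 and 10 reads and ΔWAPL/ΔSCC4 cells 45, 31 and 37. In each set every ΔWAPL sample was below every control, and every double mutant was above every sample of clone 3.3.

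In CPM, TNNI3 averaged 1.42 ± 0.105 in the controls of set A, 0.676 ± 0.164 in clone 3.3, 0.965 ± 0.401 in ΔSCC4 cells and 2.19 ± 0.338 in ΔWAPL/ΔSCC4 cells, and 2.07 ± 0.181 and 0.338 ± 0.123 in control and clone 1.14 of set B. It fell by 1.097 on the log2 scale in clone 3.3 (SE 0.294, edgeR adjusted p = 0.0298). This call was lost with DESeq2 (adjusted p = 0.144), with the replicate block (0.0613), without control replicates 2 (0.115) or 3 (0.0712) and without clone 3.3 replicates 1 (0.133) or 2 (0.142). In clone 1.14 it fell by 2.56 (SE 0.256, edgeR adjusted p = 0.00058), and this call held in all alternatives that gave a value. The double mutant was 1.70 above clone 3.3 (SE 0.270, edgeR adjusted p = 0.000416) and 1.25 above ΔSCC4 (SE 0.291, edgeR adjusted p = 0.00432). The WAPL by SCC4 interaction was 2.35 (SE 0.391, edgeR adjusted p = 0.000916). ΔSCC4 against control (-0.64, edgeR adjusted p = 0.244) and the double mutant against control (0.61, edgeR adjusted p = 0.123) were not called. The difference of the WAPL effect between the clones, 1.48, had an edgeR adjusted p of 0.0624, and of 0.0492 without clone 1.14 replicate 1.

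TNNI3 overlaps ENSG00000267110 on the same strand by 3017 bp, but that gene had no read in any sample. The TNNI3 window is shown because the levels of this gene were like those of NLRP2, and is given in the orientation of the gene.
TNNI3, chr19:55157683-55157982, minus strand: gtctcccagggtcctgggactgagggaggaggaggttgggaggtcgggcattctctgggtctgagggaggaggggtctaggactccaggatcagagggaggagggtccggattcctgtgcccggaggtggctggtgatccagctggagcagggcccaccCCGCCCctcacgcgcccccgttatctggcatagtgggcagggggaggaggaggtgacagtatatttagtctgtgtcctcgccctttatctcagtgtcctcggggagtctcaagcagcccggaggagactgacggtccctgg
It held 11 CG dinucleotides, 1 match to GGGCGG and 6 to CCCTC, against 1 match to CCCTC in each NLRP2 window.

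TNNT1 (ENSG00000105048), 131556 bp away, encodes troponin T of slow skeletal muscle and sits next to TNNI3. TNNT1 had 27.3, 24.4 and 22.0 CPM in set A controls and 29.1, 27.6 and 32.8 in clone 3.3. In set B, TNNT1 had 28.4, 30.1 and 27.9 CPM in the controls and 22.6, 22.3 and 21.5 in clone 1.14. ΔSCC4 cells had 16.9, 13.4 and 13.5 CPM and ΔWAPL/ΔSCC4 cells 32.0, 27.0 and 30.8. Every sample of clone 3.3 was above, and every sample of clone 1.14 below, its own controls.

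TNNT1 fell by 0.38 in clone 1.14 (SE 0.068, edgeR adjusted p = 0.00793), and was 0.26 higher in clone 3.3 with an edgeR adjusted p of 0.454. The difference between the clones was 0.66 (SE 0.149, edgeR adjusted p = 0.0309). That difference was lost with no filter (0.053), with the block (0.222) and in 9 of the 12 fits without 1 library, with adjusted p of up to 0.102, and remained without control A replicate 1, clone 3.3 replicate 1 or control B replicate 3. TNNT1 fell by 0.76 in ΔSCC4 cells (SE 0.161, edgeR adjusted p = 0.013), a call lost without control A replicate 2 (0.0619) or ΔSCC4 replicate 2 (0.0755). It was 1.03 higher in the double mutant than in ΔSCC4 cells (SE 0.148, edgeR adjusted p = 6.57e-05), and 0.01 higher than in clone 3.3 with an edgeR adjusted p of 0.984. The WAPL by SCC4 interaction was 0.77 (SE 0.195, edgeR adjusted p = 0.0175), lost without ΔSCC4 replicate 2 (0.0529) or ΔWAPL/ΔSCC4 replicate 1 (0.0541).

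IL11 (ENSG00000095752), 363240 bp away, encodes a cytokine of the interleukin-6 family. It had 13 to 27 reads in the controls of set A, 6 to 15 in clone 3.3, 3 to 7 in ΔSCC4 cells and 11 to 21 in ΔWAPL/ΔSCC4 cells. In set B it had 19 to 30 reads in the controls and 5 to 14 in clone 1.14. IL11 fell by 1.60 in clone 1.14 (SE 0.313, edgeR adjusted p = 0.0118), lost without clone 1.14 replicate 3 (0.0511). It fell by 1.70 in ΔSCC4 cells (SE 0.416, edgeR adjusted p = 0.0265), lost with DESeq2 (0.0515) and without control A replicate 3 (0.0793), ΔSCC4 replicate 2 (0.0889) or ΔSCC4 replicate 3 (0.0573). In clone 3.3 its value was -0.76, with an edgeR adjusted p of 0.286. The WAPL by SCC4 interaction was 2.15 (SE 0.572, edgeR adjusted p = 0.0237), lost without control A replicate 3 (0.0568), clone 3.3 replicate 2 (0.053), ΔSCC4 replicate 2 (0.0601), ΔSCC4 replicate 3 (0.0534) or ΔWAPL/ΔSCC4 replicate 2 (0.0633).

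BRSK1 (ENSG00000160469), 280930 bp away, encodes a kinase of neuronal polarity. It averaged 9.83 ± 0.903 CPM in the controls of set A, 11.2 ± 1.72 in clone 3.3, 18.4 ± 2.71 in ΔSCC4 cells and 11.97 ± 2.13 in ΔWAPL/ΔSCC4 cells. BRSK1 rose by 0.89 in ΔSCC4 cells (SE 0.165, edgeR adjusted p = 0.00613) and differed by -0.62 between the double mutant and ΔSCC4 cells (SE 0.165, edgeR adjusted p = 0.0103). Both calls held in all alternatives. The WAPL by SCC4 interaction was -0.79 (SE 0.239, edgeR adjusted p = 0.0473), lost with at least 10 counts in every sample (0.0563), with the block (0.0599) and in 8 of the 12 fits without 1 library (0.0721 to 0.112), among them those without either ΔSCC4 replicate 1 or clone 3.3 replicate 3. In ΔSCC4 cells against control, and in the double mutant against ΔSCC4 cells, BRSK1 thus moved opposite to NLRP2. Against control BRSK1 was 0.28 higher in the double mutant (edgeR adjusted p = 0.432), a direction shared with NLRP2. In set B BRSK1 averaged 7.94 ± 0.461 CPM in the controls and 9.55 ± 0.325 in clone 1.14, 0.26 higher (edgeR adjusted p = 0.0661).

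The remaining calls were each lost in at least 1 alternative. COX6B2, a testis isoform of a cytochrome c oxidase subunit, fell by 1.07 in clone 1.14 (edgeR adjusted p = 0.0337), lost without control B replicate 1 (0.0942) or clone 1.14 replicates 1 (0.125) or 2 (0.112). It fell by 1.36 in ΔSCC4 cells (edgeR adjusted p = 0.0412), lost with DESeq2 (0.0836) and without control A replicates 2 (0.0592) or 3 (0.111) or ΔSCC4 replicates 1 (0.153) or 2 (0.13). DNAAF3, needed to assemble the dynein arms of cilia, fell by 0.52 in clone 1.14 (edgeR adjusted p = 0.0477), a call lost with DESeq2 (0.285), with no filter (0.0691), with the block (0.0601), in the fit over all samples (0.13) and without any 1 of the 6 libraries (0.0515 to 0.161). It was 0.87 higher in the double mutant than in control (edgeR adjusted p = 0.0154), lost without ΔWAPL/ΔSCC4 replicate 1 (0.0893). LENG8, a gene of the leukocyte receptor cluster, was 0.44 higher in the double mutant than in control (edgeR adjusted p = 0.0392), lost with the block (0.1) and in 4 of 6 fits without 1 library, of which those without control A replicate 2 (0.205) and ΔWAPL/ΔSCC4 replicate 1 (0.184) were farthest. LENG8 was also 0.44 above clone 3.3 (edgeR adjusted p = 0.0312), lost without clone 3.3 replicates 1 (0.0855) or 2 (0.16) or ΔWAPL/ΔSCC4 replicates 1 (0.125) or 3 (0.0967).

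In the double mutant against ΔSCC4, KMT5C, a histone H4 lysine 20 methyltransferase, was 0.41 higher (edgeR adjusted p = 0.0372), lost without ΔSCC4 replicates 2 (0.138) or 3 (0.0537) or ΔWAPL/ΔSCC4 replicates 1 (0.123) or 3 (0.114). RPL28, a ribosomal protein gene, fell by 0.38 (edgeR adjusted p = 0.0314), lost without ΔSCC4 replicates 1 (0.109) or 2 (0.0948) or ΔWAPL/ΔSCC4 replicates 1 (0.0704) or 2 (0.142). AC020922.1 was 1.18 higher (edgeR adjusted p = 0.0275), lost with DESeq2 (0.069) and without ΔSCC4 replicate 2 (0.126) or ΔWAPL/ΔSCC4 replicates 1 (0.0966) or 2 (0.0779). Its interaction was 1.62 (edgeR adjusted p = 0.0402), lost with DESeq2 (0.0666), with the block (0.065) and in 8 of 12 fits without 1 library (0.0636 to 0.0979), among them those without ΔSCC4 replicates 2 or 3. AC020922.1 overlaps KMT5C on the same strand by 5308 bp, so its counts are uncertain. Of the 26 calls in the window, over 10 genes, 8 held in every alternative that gave a value: 4 of TNNI3, 2 of TNNT1 and 2 of BRSK1.

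**Figure D4:**
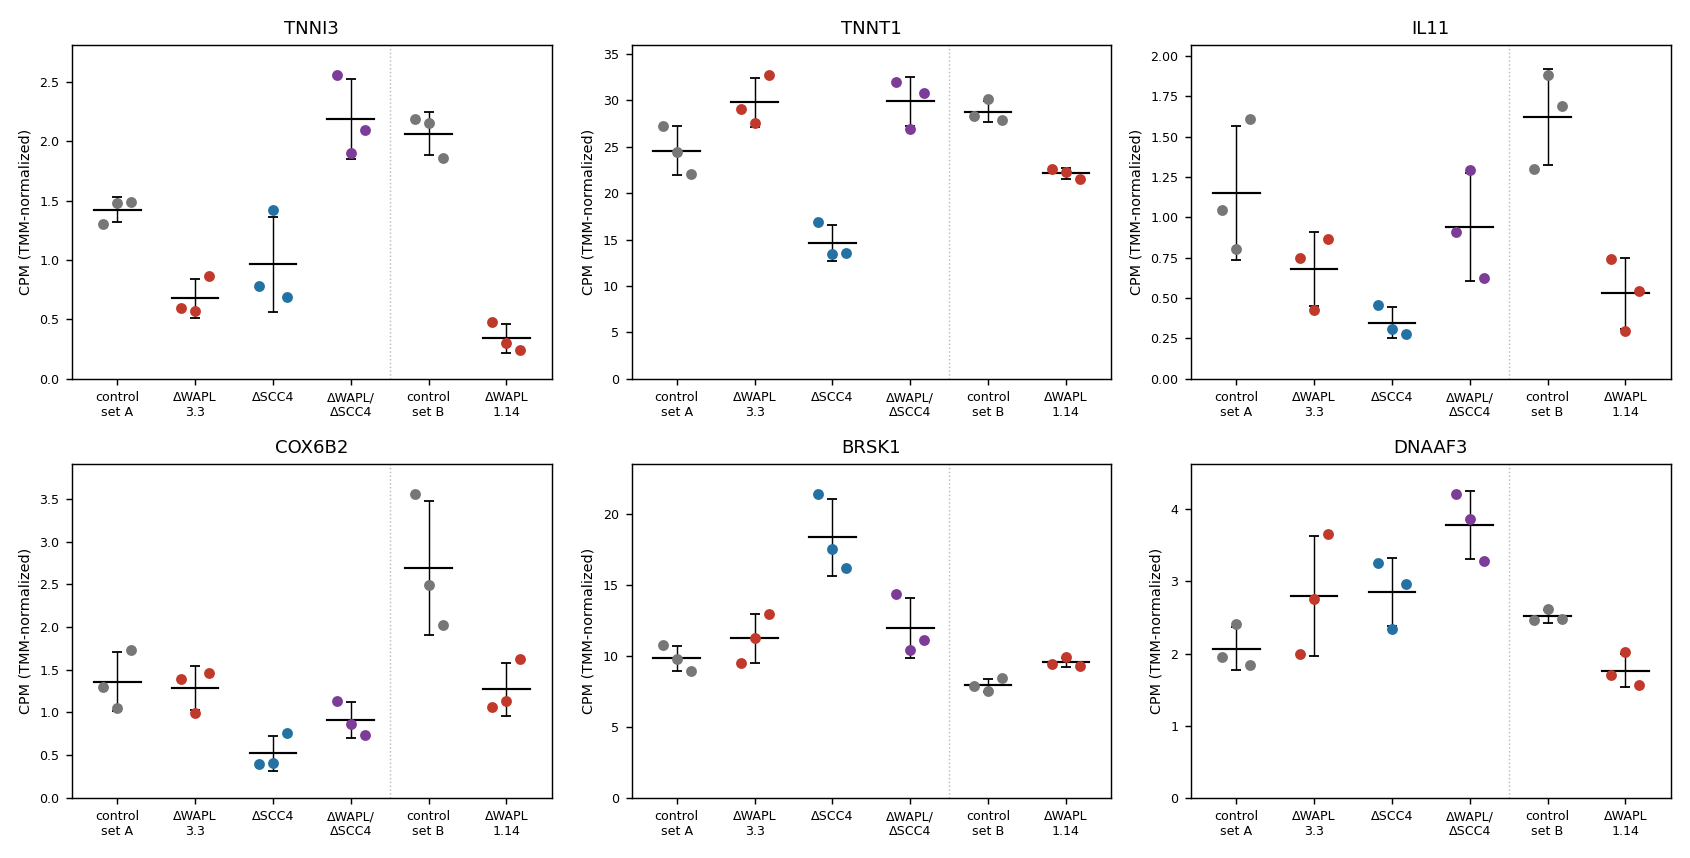
CPM after TMM normalization of TNNI3, TNNT1, IL11, COX6B2, BRSK1 and DNAAF3, called genes between 131556 and 363240 bp from NLRP2, in the 3 samples of each group with means (horizontal bars), SD (whiskers, n = 3) and a dotted line between the sets. TNNI3 is lowest in clone 1.14 (0.338 CPM) and highest in ΔWAPL/ΔSCC4 cells (2.19 CPM), and BRSK1 is highest in ΔSCC4 cells (18.4 CPM).

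Correlation with NLRP2 was ranked over the genes that passed the count filter over all groups, which left out NLRP7 and GP6. The highest values of such a ranking exceed those of a few neighbours by selection, so no contrast is drawn between them. Over the 18 samples, Pearson's r of log2 CPM with NLRP2 was 0.955 for MYOF, 0.939 for BSPRY, 0.939 for ALPG, 0.936 for ENSG00000227184, which has no symbol in the annotation used, and 0.930 for VCL, the highest of 12975 genes. TNNI3, at 0.924, ranked 10, while RDH13 had 0.178, PPP1R12C -0.035 and EPS8L1 -0.151. These values are descriptions: the samples fall into 6 groups in 2 sets, and the replicates of a group share a clone.

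MYOF, which encodes myoferlin, a membrane repair protein, averaged 7.37 ± 0.428 CPM in the controls of set A, 2.67 ± 0.643 in clone 3.3, 6.46 ± 0.584 in ΔSCC4 cells and 19.9 ± 2.83 in ΔWAPL/ΔSCC4 cells, and 14.2 ± 0.481 and 1.47 ± 0.0785 in control and clone 1.14 of set B. ALPG, a germ cell alkaline phosphatase, came closest to the extent seen at NLRP2, with no read in either ΔWAPL clone, 0.0217 ± 0.0375 CPM in ΔSCC4 cells and 0.739 ± 0.267 to 1.24 ± 0.224 CPM in the other groups. VCL, the adhesion protein vinculin, had the same order of groups at a small range, from 306.3 ± 20.9 CPM in clone 3.3 to 412.8 ± 29.3 in ΔWAPL/ΔSCC4 cells. A high r thus stood for changes of very different size.

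**Figure D5:**
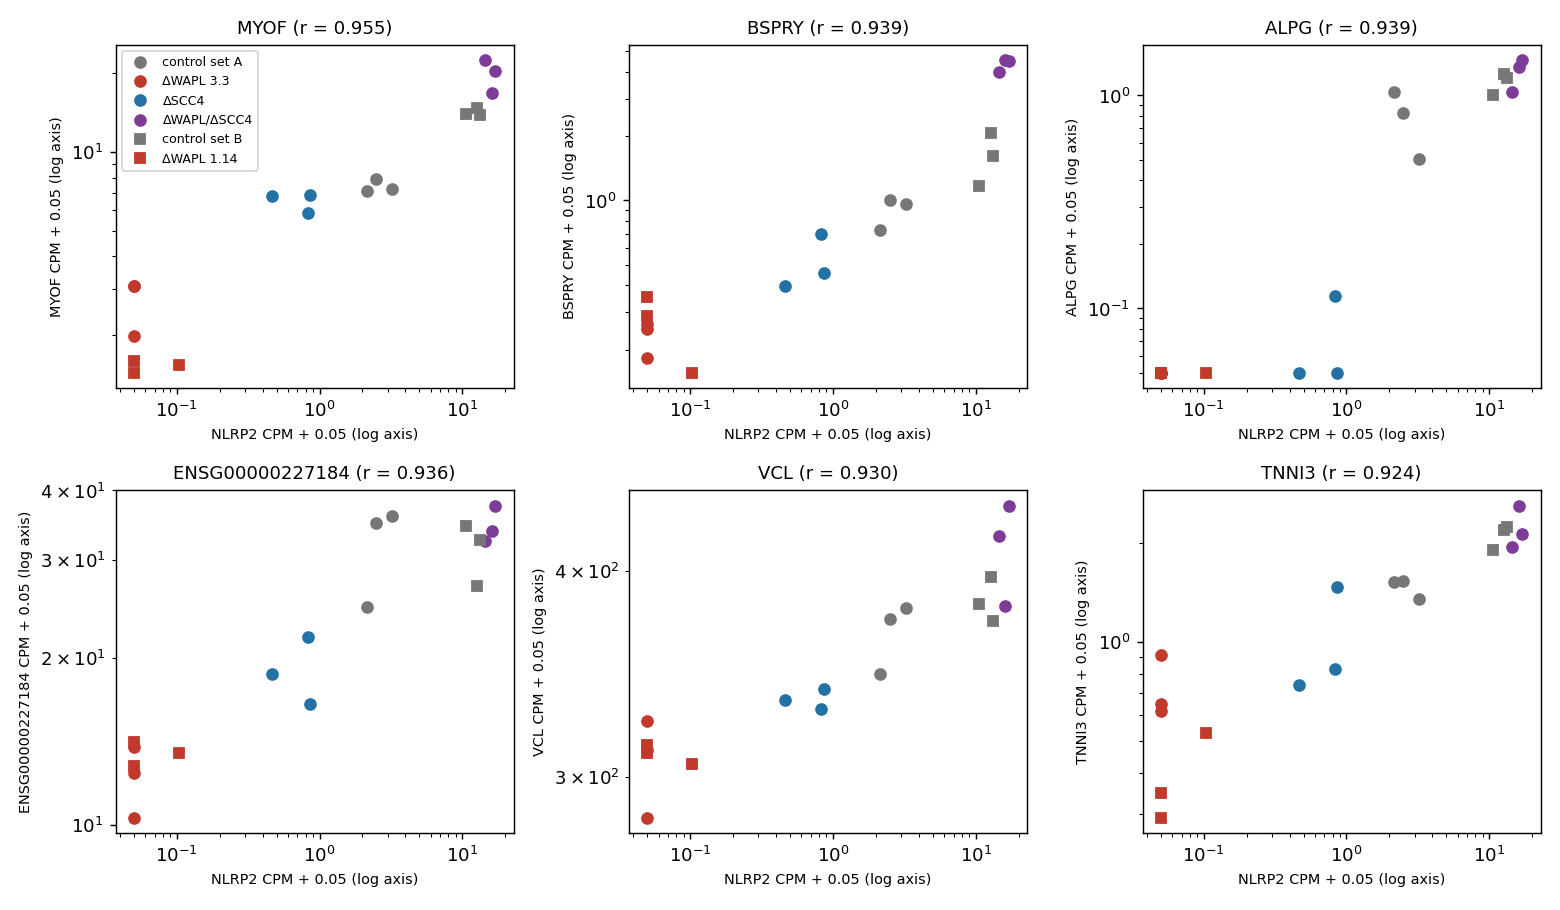
CPM + 0.05 of the 5 genes with the highest Pearson correlation with NLRP2 over the 18 samples, and of TNNI3, against NLRP2 CPM + 0.05, with both axes logarithmic, circles for set A and squares for set B. In every panel the ΔWAPL samples sit at the lower left and the ΔWAPL/ΔSCC4 samples toward the upper right.

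Of 22 listed NLR family genes, all present in the tables, 5 besides NLRP2 were tested, so most of the family, NLRP7 included, was too low to test. In clone 3.3, 1 of the 5 was lower, where 8.07% of all genes were called, and in clone 1.14, 1 was higher and 1 lower, where 20.1% were. The median of their log2 fold changes was 0.07 in clone 3.3 and -0.16 in clone 1.14, beside 0.00 for all genes in both. NLRC5, a transactivator of MHC class I genes, was the 1 gene of these 5 called lower in both clones, by 0.80 in clone 3.3 (SE 0.198, edgeR adjusted p = 0.0177) and by 0.97 in clone 1.14 (SE 0.083, edgeR adjusted p = 0.000274). The call in clone 3.3 was lost without its replicates 1 (0.0795) or 2 (0.111). NLRC5 averaged 20.9 ± 2.29 CPM in the controls of set A, 12.2 ± 3.36 in clone 3.3 and 20.95 ± 2.44 in the double mutant, which was 0.79 above clone 3.3 (SE 0.173, edgeR adjusted p = 0.00617). In ΔSCC4 cells it averaged 21.2 ± 2.66 CPM. NAIP, a sensor of bacterial flagellin, rose by 1.12 in clone 1.14 (SE 0.268, edgeR adjusted p = 0.0262), lost with DESeq2 (0.0972), in the fit over all samples (0.0523), and without control B replicates 1 (0.0833) or 2 (0.0546) or clone 1.14 replicates 1 (0.0975) or 3 (0.0712). NAIP was also 0.85 higher in ΔSCC4 cells with the replicate block (edgeR adjusted p = 0.0469), where without it no family member was called.

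Of 12 listed inflammasome partners 3 were tested. In clone 3.3, 1 was called, where 8.07% of all genes were, and in clone 1.14, 2 were, where 20.1% were. In ΔSCC4 cells 1 was called, where 9.49% of all genes were. The double mutant had 1 call against clone 3.3 and 1 against ΔSCC4, where 10.6% and 27.3% of all genes were called. PYCARD, the ASC adaptor that links pyrin domains to caspase-1, moved opposite to NLRP2 in the ΔWAPL clones. It averaged 2.29 ± 0.356 CPM in the controls of set A and 5.80 ± 0.931 in clone 3.3, a rise of 1.32 (SE 0.217, edgeR adjusted p = 0.000813). In set B it averaged 2.11 ± 0.494 and 5.68 ± 0.762 CPM, a rise of 1.44 (SE 0.194, edgeR adjusted p = 0.0023). In ΔSCC4 cells PYCARD was lower, like NLRP2, at 1.11 ± 0.00824 CPM (-1.05, SE 0.240, edgeR adjusted p = 0.0198), a call lost with DESeq2 (0.0683) and without control A replicate 2 (0.0712) or ΔSCC4 replicates 1 (0.0639) or 2 (0.0691). The double mutant, at 3.26 ± 0.615 CPM, was 1.55 above ΔSCC4 (SE 0.243, edgeR adjusted p = 0.000157) and differed from clone 3.3 by -0.82 (SE 0.189, edgeR adjusted p = 0.0094), the latter lost without clone 3.3 replicate 2 (0.0503) or ΔWAPL/ΔSCC4 replicate 3 (0.0626). CARD8 rose by 0.28 in clone 1.14 (edgeR adjusted p = 0.0262), lost with DESeq2 (0.0867), in the fit over all samples (0.271) and without control B replicate 1 (0.0826) or any 1 of the clone 1.14 replicates (0.055 to 0.116).

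Of 12 listed NF-κB target genes 7 or 8 were tested. In clone 3.3 and ΔSCC4 cells edgeR called none of 7, where 8.07% and 9.49% of all genes were called. With the replicate block in ΔSCC4 cells, where 46.0% of all genes were called, it called NFKB2 (-0.29, adjusted p = 0.00485) and NFKB1 (0.23, adjusted p = 0.0164). In clone 1.14 NFKB2, a subunit gene of the pathway, fell by 0.74 (SE 0.080, edgeR adjusted p = 0.000815). NFKB1 rose by 0.33 (edgeR adjusted p = 0.024) and TNFAIP3, an inhibitor of the pathway, by 0.46 (edgeR adjusted p = 0.0136). The NFKB1 call was lost without control B replicate 1 (0.0569) or any 1 of the clone 1.14 replicates (0.0606 to 0.0767), and that of TNFAIP3 with DESeq2 (0.101) and without clone 1.14 replicate 3 (0.0551). CCL2, a monocyte chemokine, was 1.33 higher in the double mutant than in ΔSCC4 cells (SE 0.197, edgeR adjusted p = 8.52e-05) and 0.92 higher than in control (SE 0.199, edgeR adjusted p = 0.0161), the latter lost without ΔWAPL/ΔSCC4 replicate 1 (0.0868). RELB was 0.63 higher in the double mutant than in ΔSCC4 cells (edgeR adjusted p = 0.0379), lost with DESeq2 (0.135) and without any 1 library (0.0504 to 0.122). NFKB2 was 0.52 higher in the double mutant than in clone 3.3 (edgeR adjusted p = 0.0201), lost without clone 3.3 replicate 2 (0.108) or ΔWAPL/ΔSCC4 replicates 1 (0.106) or 3 (0.079), and its interaction of 0.81 (edgeR adjusted p = 0.0196) was lost without ΔSCC4 replicate 2 (0.0566), clone 3.3 replicate 2 (0.0519) or ΔWAPL/ΔSCC4 replicate 1 (0.059). In clone 1.14 the calls came to 2 higher and 1 lower of 8 tested, where 20.1% of all genes were called. In the double mutant 1 of 8 was called against control and 1 against clone 3.3, where 7.95% and 10.6% of all genes were. Against ΔSCC4 cells 2 of 8 were called, where 27.3% were, and the interaction called 1 of 8, where 11.3% were.

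Of 12 listed maternal-effect genes of egg and early embryo 10 were in the tables and 4 were tested. Of all genes 8.07% were called in clone 3.3, 20.1% in clone 1.14 and 9.49% in ΔSCC4 cells. In the double mutant 10.6% were called against clone 3.3 and 27.3% against ΔSCC4. Among the 4 tested, ZBED3, a partner of the subcortical maternal complex, was the 1 that was called in these comparisons. It averaged 14.4 ± 1.19 CPM in the controls of set A, 9.68 ± 0.277 in clone 3.3, 22.5 ± 1.04 in ΔSCC4 cells and 13.9 ± 0.556 in ΔWAPL/ΔSCC4 cells, and 14.1 ± 0.406 and 11.8 ± 0.367 in control and clone 1.14 of set B. The double mutant differed from ΔSCC4 cells by -0.70 (SE 0.136, edgeR adjusted p = 0.00106), a call that held in all alternatives. The rise of 0.64 in ΔSCC4 cells (edgeR adjusted p = 0.0169) was lost without control A replicate 2 (0.115) or ΔSCC4 replicate 2 (0.0525), and the fall of 0.59 in clone 3.3 (edgeR adjusted p = 0.0264) with the block (0.188) and in 5 of 6 fits without 1 library (0.0679 to 0.114), all but that without control A replicate 1. In clone 1.14 ZBED3 fell by 0.27 (edgeR adjusted p = 0.0424), lost with DESeq2 (0.219), with no filter (0.0614), with the block (0.0678), in the fit over all samples (0.0643) and in 5 of 6 fits without 1 library (0.0843 to 0.126), all but that without control B replicate 3. It was 0.52 higher in the double mutant than in clone 3.3 (edgeR adjusted p = 0.0152), lost without clone 3.3 replicate 2 (0.0581) or ΔWAPL/ΔSCC4 replicate 3 (0.0717).

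Marker genes of other cell types differed between the groups in which NLRP2 differed. The summed level of 4 epithelial markers (EPCAM, CDH1, KRT8 and KRT18) was 107.5 to 130.5 CPM in ΔWAPL/ΔSCC4 cells, where NLRP2 was highest, and 41.6 to 81.9 CPM elsewhere, with CDH1 at 0 in 3 of the 6 groups. The members did not move together, since in the double mutant KRT8 averaged 48.5 CPM against 8.14 in set A controls and KRT18 73.6 against 61.9, whereas EPCAM averaged 0.657 against 1.17 and CDH1 had no read. VIM, the mesenchymal marker, was 236.8 to 276.9 CPM in ΔWAPL/ΔSCC4 cells and 348.2 to 653.9 elsewhere. The 3 oocyte markers ZP3, GDF9 and DDX4 summed to 2.21 to 7.54 CPM, lowest in the double mutant, and DDX4 had no read in the controls or clone 3.3 of set A. The part of these differences in the levels of NLRP2 was not tested.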

How the data were processed

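RNA was sequenced from poly(A)-selected, strand-specific libraries of 18 HAP1 samples. The authors aligned reads to hg19 and deposited raw counts per gene, made with HTSeq from uniquely aligned reads; the submitters' processing notes name TopHat2 2.0.9 and DESeq2 1.10.1. The HTSeq version and annotation release are not given in the sources used here. Rows naming no gene held 20.3 to 22.6% of reads and were left out. Of 20329 gene identifiers, 19637 (96.6%) matched the GRCh37 annotation.

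Counts were tested here with edgeR 4.0.16 in R 4.3.3 (TMM, filterByExpr, quasi-likelihood test, Benjamini-Hochberg adjusted p of 0.05), on the groups compared in each case. The method was also run on simulated data that gave every gene the same dispersion. That check does not cover the spread between these samples. Alternatives were DESeq2 1.42.0, its size factors, other filters (none, or at least 10 counts), a fit over all samples, a replicate block and leaving out each library. Correlations used log2 CPM with a prior count of 2. A floor of 3 counts equals 0.145 to 0.300 CPM per library. Counting intervals are 95% and cover counting error only. No 2 files were identical. By a cut on the lowest correlation, replicate numbers paired the samples of ΔSCC4 against control only (correlations of deviations 0.675, 0.115 and 0.615).

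Members and lists were chosen with earlier results of these data known. Genes were named as members, as called genes within 500 kb, as called genes of the fixed lists, or as the 5 most correlated with NLRP2. Promoter windows are from RefSeq (GRCh38.p14).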

Additional observations from a re-analysis of the deposited data

Results flagged for a closer look

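NLRP2 was below every control in clone 3.3 and above every ΔSCC4 sample in ΔWAPL/ΔSCC4 cells. Mean NLRP2 CPM differed by -2.58 between clone 3.3 and control and by 15.2 between ΔWAPL/ΔSCC4 and ΔSCC4. For NLRP7 these differences were -0.0871 and 0.175 CPM, on at most 4 reads per library. Control A replicate 2 and clone 3.3 replicate 1 had 1 NLRP7 read each, so their order in CPM comes from library scaling alone. The difference between these effects was not tested for either gene.

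TNNI3 showed the same opposition, with -0.748 and 1.22 CPM, and its WAPL by SCC4 interaction was 2.35 on the log2 scale. The interaction also passed the edgeR threshold for IL11 (2.15), AC020922.1 (1.62), TNNT1 (0.77) and BRSK1 (-0.79), of which IL11 was lost without control A replicate 3, AC020922.1 with DESeq2, TNNT1 without ΔSCC4 replicate 2 and BRSK1 with the replicate block.

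Mean TNNT1 differed from control by 5.23 CPM in clone 3.3 and by -6.67 CPM in clone 1.14, in every sample against its own controls. The difference between the clones was 0.66 on the log2 scale and was lost in 9 of the 12 fits without 1 library.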

How the results depend on the processing

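RDH13, EPS8L1 and PPP1R12C were called in 1 of 369 alternative tests. These refit the same 27 tests on the same or overlapping samples, so they are not independent. The 1 call came with the replicate block in ΔSCC4 cells, where 46.0% of all genes were called. No called fold change of a named gene changed sign in an alternative that gave a value. Uncalled values near 0 did change sign, as for RDH13 in clone 3.3, which ranged from -0.224 to 0.132. The number of called genes within 500 kb depended on the setting. Clone 3.3 went from 1 to 0 with DESeq2, with at least 10 counts and with the replicate block, and clone 1.14 from 5 to 3 with at least 10 counts. ΔSCC4 went from 4 to 2 with DESeq2, to 2 with at least 10 counts and to 11 with the block. The double mutant went from 2 to 1 against control with the block and from 2 to 1 against clone 3.3 with at least 10 counts. The clone difference went from 1 to 0 with no filter and to 0 with the block, and the interaction from 5 to 1 with at least 10 counts and to 3 with the block. The stricter filter tested 16 to 18 of these genes in the comparisons named; other causes were not tested.

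Without 1 library the counts ranged from 0 to 1 for clone 3.3, 3 to 7 for clone 1.14, 1 to 4 for ΔSCC4, 0 to 3, 1 to 3 and 3 to 7 for the double mutant against control, clone 3.3 and ΔSCC4, 0 to 2 for the clone difference, 1 to 5 for the interaction and 0 to 0 between controls.

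Over all genes, ΔSCC4 went from 1186 calls to 5754 with the block and 2556 in the fit over all samples, clone 3.3 from 1008 to 1753 in that fit, the clone difference from 339 to 211 with at least 10 counts and 173 with the block, and the controls from 80 to 168 with DESeq2, 127 with no filter, 162 with the block and 408 in the fit over all samples. Without 1 library, calls ranged from 1415 to 4820 for clone 1.14, 662 to 2317 for ΔSCC4 and 0 to 107 between controls. Outside ΔSCC4 no pairwise comparison passed the cut used here for pairing by replicate number, which was set on the lowest correlation of deviations. For clone 1.14 against control these correlations were 0.049, 0.319 and 0.196. The block gave 3030 calls there in place of 2536. NLRP7 and GP6 were too shallow to test.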

Other observations

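Between 500 and 1000 kb from NLRP2, 42 genes were in the tables and 19 or 20 were tested. Called were 0 of 19 in clone 3.3, 2 of 20 in clone 1.14 and 1 of 20 in ΔSCC4 cells. Of all genes 8.07%, 20.1% and 9.49% were called there. The double mutant had 2 of 20 against control, 2 of 20 against clone 3.3 and 4 of 20 against ΔSCC4. The shares of all genes were 7.95%, 10.6% and 27.3%. The interaction called 1 of 20, where 11.3% of all genes were. Besides CACNG8 and TTYH1, the called genes were ZNF581, FIZ1 and ZNF865. CACNG8, an auxiliary subunit gene of AMPA receptors 971029 bp away, averaged 3.82 ± 0.279 CPM in ΔWAPL/ΔSCC4 cells, 0.778 ± 0.247 in the controls of set A, 0.288 ± 0.300 in clone 3.3 and 0.763 ± 0.0497 in ΔSCC4 cells (SD, n = 3). It was 2.27 higher in the double mutant than in control (SE 0.232, edgeR adjusted p = 0.000127), 3.54 higher than in clone 3.3 (SE 0.383, edgeR adjusted p = 8.31e-06) and 2.32 higher than in ΔSCC4 (SE 0.240, edgeR adjusted p = 1.66e-06), in every alternative that gave a value. TTYH1, a chloride channel family gene 516414 bp away, differed by -0.74 in clone 1.14 (SE 0.081, edgeR adjusted p = 0.00081) and by -1.05 between the double mutant and ΔSCC4 (SE 0.136, edgeR adjusted p = 1.99e-05). Between the double mutant and control it differed by -0.71 (edgeR adjusted p = 0.014), lost without ΔWAPL/ΔSCC4 replicates 1 (0.0717) or 3 (0.0584). In clone 3.3 the main edgeR fit did not call TTYH1. DESeq2 did (-0.56, adjusted p = 0.0465), as did edgeR with no filter (0.0349) and in the fit over all samples (0.00284).

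KRT8, an epithelial keratin, fell by 1.15 in clone 3.3 (edgeR adjusted p = 0.000814), by 2.14 in clone 1.14 (edgeR adjusted p = 3.66e-05) and by 1.61 in ΔSCC4 cells (edgeR adjusted p = 0.00189), and was 2.57 higher in the double mutant than in control (edgeR adjusted p = 3.31e-06). EPCAM fell by 1.93 in clone 3.3 (edgeR adjusted p = 0.00834) and by 3.89 in clone 1.14 (edgeR adjusted p = 0.000322). In the double mutant it averaged 0.657 ± 0.273 CPM against 1.17 ± 0.509 in the controls of set A, the opposite order to KRT8, and CDH1 had no read there.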
